A study of Mus musculus with 9 samples.

Results

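The nuclear genes of oxidative phosphorylation were taken from the table of counts per gene by their symbols: protein-coding genes of the Ndufa, Ndufb, Ndufc, Ndufs, Ndufv, Uqcr, Cox4i, Cox5, Cox6a, Cox6b, Cox6c, Cox7a, Cox7b, Cox7c, Cox8 and Atp5 families, together with Sdha, Sdhb, Sdhc, Sdhd, Cyc1 and Cycs. This gave 87 members among 52550 genes: 38 of complex I, 4 of complex II, 9 of complex III, cytochrome c, 18 of complex IV and 17 of the ATP synthase. A further 9 symbols with the suffix -ps, 8 Ndufaf assembly factors and 4 genes not annotated as protein-coding share these prefixes and were left out.

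The cells were mouse haematopoietic stem cells of bone marrow, sorted by the surface phenotype Lin- Sca1+ c-Kit+ CD48- CD150+, with 1000 cells for each RNA-seq library. Wild-type mice of 2 months gave 3 libraries (young), wild-type mice of 22 to 24 months gave 3 (aged WT), and Sphk2-deficient mice, also 22 to 24 months old, gave 3 (aged KO). The genotype of the last group is given as B6N.129S6-Sphk2tm1Rlp/J (Sphk2 cKO), and no Cre driver is named in the labels. Sphk2 encodes sphingosine kinase 2, which phosphorylates sphingosine. The 3 libraries of each group are called technical replicates and no mouse is named, so p-values measure only the spread between these libraries. In such pooled cells, fewer cells with a transcript and less of it per cell cannot be told apart.

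Oxidative phosphorylation moves electrons from NADH through complex I, or from succinate through complex II, to ubiquinone, then through complex III and the mobile carrier cytochrome c to complex IV, where oxygen is reduced. The proton gradient built by complexes I, III and IV drives the ATP synthase. Complex II is coded wholly in the nucleus, the other complexes also hold subunits coded by mitochondrial DNA, and haematopoietic stem cells are known for relying on glycolysis more than on respiration.

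The libraries differed in ways that touch every value below. The young libraries held 28088637 to 74021822 counts in genes, the aged WT libraries 3145167 to 5115003 and the aged KO libraries 11284847 to 17544945. Reads that fell outside every annotated gene took 10.3% ± 3.29 (SD, n = 3) of the young, 83.6% ± 3.62 of the aged WT and 54.5% ± 8.61 of the aged KO counts. Reads over the exons of 1134 olfactory receptor genes served as a background: it lay between 0.0159 and 0.0459 CPM (counts per 1000000 counts in genes) per kb of exons in young, 1.72 and 3.02 in aged WT, and 0.316 and 0.646 in aged KO libraries. To be called above background in a library, a gene needed 20 counts or more and 5-fold or more over what its exon length would collect at that density. Sphk2 itself had 22.8, 3.13 and 18.6 CPM in young, 3.91, 0.318 and 10.2 CPM in aged WT, and 0.892, 2.04 and 0.456 CPM in aged KO libraries. It was above background only in the young libraries, so it cannot check the knockout label against aged WT. Of 19 stem cell sort and identity genes, 16 were above background in at least 2 libraries of young, 0 of aged WT and 12 of aged KO, and none had 0 counts in a whole group. The summed level of these genes was 2732 to 3162 CPM in young, 764 to 2187 CPM in aged WT and 2178 to 4409.9 CPM in aged KO libraries. Of 10 granulocyte and monocyte markers 6, 2 and 4 were above background in at least 2 libraries of the 3 groups in the same order, with sums of 718 to 1079.5, 692 to 1187 and 1135 to 2289 CPM. Of 10 erythroid markers 7, 0 and 0 were, with sums of 117 to 449, 22.3 to 48.4 and 11.0 to 63.3 CPM, and Hba-a2 had 0 counts in aged KO. Of 7 megakaryocyte markers 3, 0 and 2, of 7 B cell markers 2, 0 and 0, and of 8 T and NK cell markers 1, 0 and 1 passed in this way. Macrophage markers summed to 1.39 to 26.5, 67.6 to 169 and 13.7 to 45.4 CPM and marrow stromal markers to 0.892 to 3.99, 108.7 to 139 and 21.8 to 41.6 CPM, and 0 of the 6 genes in each list passed in any group. Their part in the results was not tested.

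Nearly the whole set of subunits was above background in the young libraries, and a different small part of it in each aged WT library. Detection fell for genes at large too. Of all protein-coding genes, 7379 to 8122 were above background in young, 640 to 1129 in aged WT and 2877 to 4171 in aged KO libraries. Above background were 80 members in each of the 3 young libraries, 25, 27 and 13 in the aged WT libraries, and 56, 54 and 66 in the aged KO libraries. By complex, young libraries had 36 to 37 of the 38 complex I genes above background, all 4 of complex II, all 9 of complex III, 12 to 13 of complex IV and 16 to 17 of the ATP synthase. The aged WT libraries had 5 to 10 of complex I, 0 or 1 of complex II, 2 or 3 of complex III, 4 to 7 of complex IV and 2 to 9 of the ATP synthase. The aged KO libraries had 19 to 26, 0 to 4, 6 to 8, 10 to 12 and 15 to 16 in the same order. Cycs, the only gene used here for cytochrome c, was above background in all 3 young, none of the aged WT and 2 of the aged KO libraries.

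**Figure D1:**
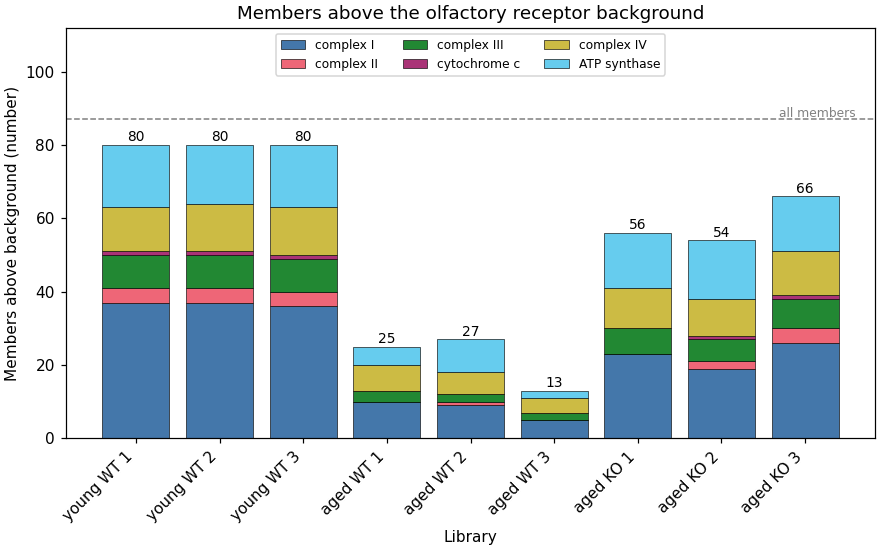
Number of members above the olfactory receptor background in each of the 9 libraries (vertical axis), stacked by complex. The number above each bar is the total of that library; young libraries reach 80 of 87 (dashed line), aged WT libraries 13 to 27 and aged KO libraries 54 to 66.

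In the plot of members above background, the 3 groups did not overlap. In aged WT the number followed the cut on background more than the count minimum: with 10 counts it was 25, 29 and 13, with 3 times the background 31, 38 and 24, and with 10 times 21, 20 and 8. A member not above background there was not distinguished from it, which does not show that it was absent. Of the 78 members above background throughout young, 36 were above it in no aged WT library, 26 in 1, 10 in 2 and 6 in all 3. Among the 5355 other protein-coding genes above background in all young libraries, 74.7% were above it in no aged WT library and 3.85% in all 3. In aged KO the same 78 members were above background in no library for 5, in 1 for 12, in 2 for 19 and in all 3 for 42. For the other genes these shares were 28.1% in none and 22.4% in all 3. The members of these 78 found in no aged WT library had a median exon length of 2101 bases, against 4472 bases for the other genes found in none. The background expected over a gene grows with that length. Their median young level was 75.2 CPM, against 44.1 CPM for those other genes. The part of length and of young level in these shares was not tested.

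Only 6 members were above background in all 9 libraries, and they were singled out after their values were seen: Ndufb11 and Ndufa2 of complex I, Uqcrh of complex III, Cox7a2l and Cox4i1 of complex IV, and Atp5b, the catalytic beta subunit of the ATP synthase. Atp5b had 925, 675 and 312 CPM in young, 903, 135 and 359 CPM in aged WT, and 85.6, 612 and 287 CPM in aged KO libraries, so its 3 groups overlapped. By the test described below it was called lower in aged WT against young with TMM scaling, with a log2 fold change of -4.55 ± 1.19 (edgeR, adjusted p = 0.0145), and not with total counts, at -0.45 (edgeR, adjusted p = 0.692). At the other end, 5 members were above background in no library: Ndufa4l2, Cox6a2, Cox7b2, Cox8b and Cox8c. All of these are isoforms known from other tissues or conditions.

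**Figure D2:**
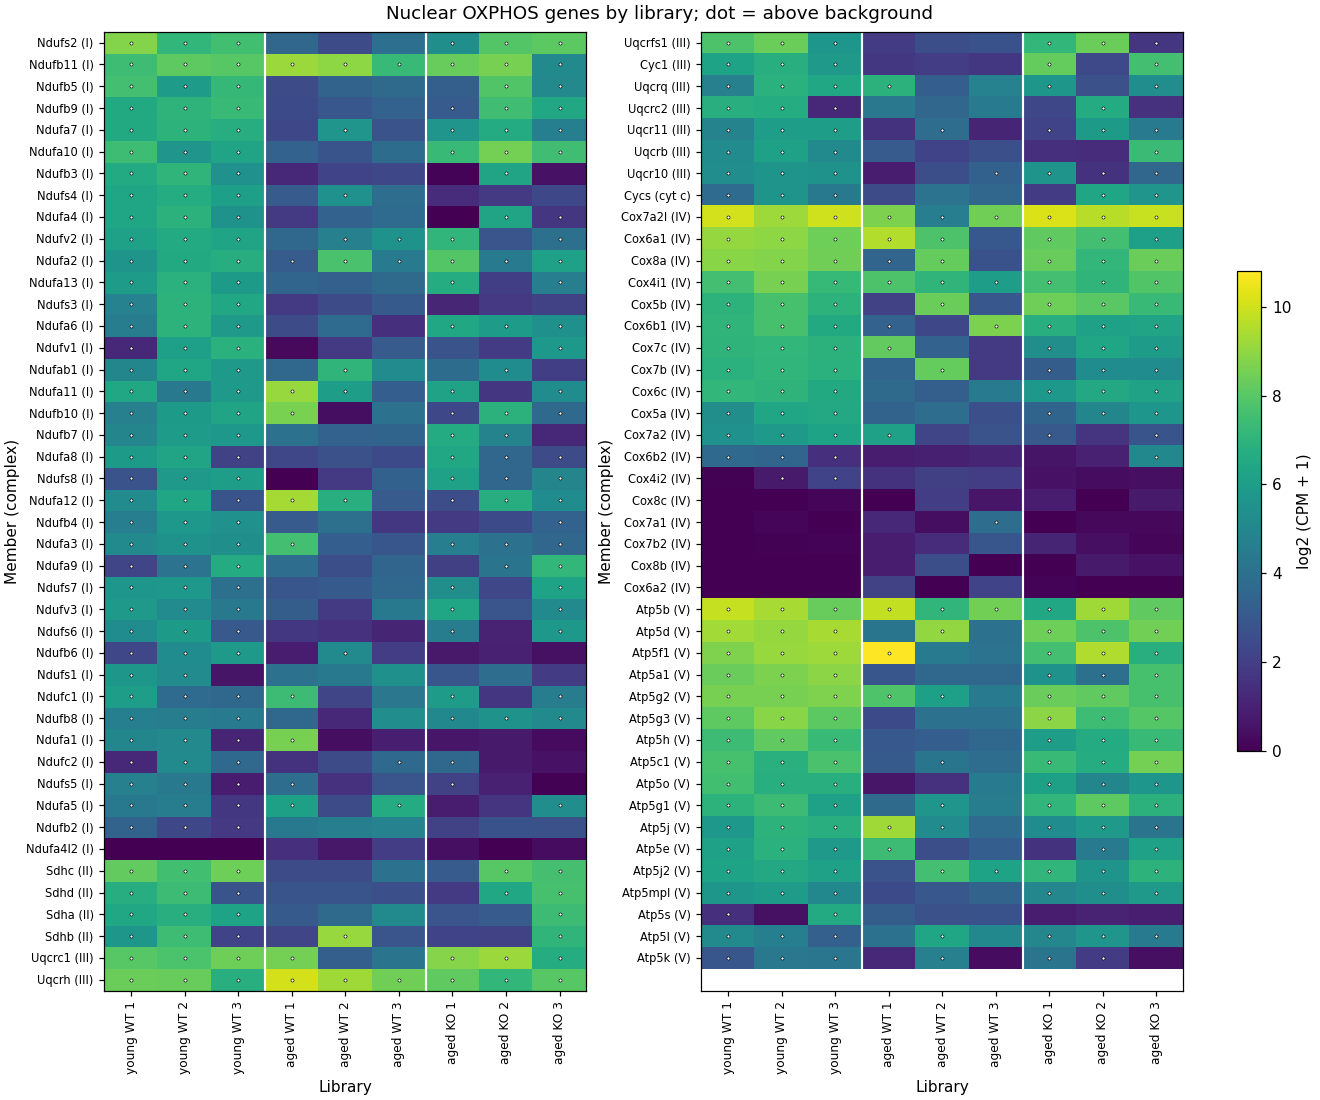
Level of the 87 members (rows, ordered by complex and then by young level) in the 9 libraries (columns) as log2 of CPM + 1, with a dot where the member is above background. Most rows are dotted in all young libraries (78 of 87), though 15 of the 81 members above background in any young library differ more than 10-fold among them; aged WT libraries hold fewer dots, often a single one in a row.

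The heat map of members by library shows how little the aged WT libraries shared. Aged WT libraries 1 and 2 had 12 members above background in common of 40 above it in either, libraries 1 and 3 had 8 of 30, and libraries 2 and 3 had 8 of 32. Any 2 young libraries had 79 of 81 in common, and any 2 aged KO libraries between 44 of 66 and 52 of 70. Across the 87 members, Pearson's r of log2 (CPM + 1) was 0.71 to 0.89 between young libraries, 0.34 to 0.44 between aged WT libraries and 0.60 to 0.63 between aged KO libraries. These are descriptions across genes of libraries that differ in depth and background. Among members above background in any library of a group, the highest and lowest library differed by a median of 2.41-fold in young (81 members), 30.0-fold in aged WT (43 members) and 11.8-fold in aged KO (73 members).

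Summed over all members, the share of counts in genes differed less than the number above background. It was 1.09%, 1.17% and 0.969% in young, 1.04%, 0.516% and 0.280% in aged WT, and 0.780%, 0.843% and 0.737% in aged KO libraries. The means were 1.08% ± 0.103, 0.613% ± 0.391 and 0.787% ± 0.0533 (SD, n = 3). Aged WT library 1 lay within the young range, the other two aged WT libraries lay below every other library, and the 3 aged KO libraries lay below the 3 young libraries. Without library 1 the aged WT mean was 0.398%. With the background subtracted the means were 1.08%, 0.780% and 0.840%. The ATP synthase genes held 0.391% ± 0.0236 in young, 0.187% ± 0.167 in aged WT and 0.242% ± 0.0309 in aged KO libraries. Complex IV genes held 0.282% ± 0.0220, 0.136% ± 0.0452 and 0.215% ± 0.0369, and complex I genes 0.241% ± 0.0234, 0.176% ± 0.129 and 0.180% ± 0.0404. Complex III genes held 0.109% ± 0.0294, 0.0913% ± 0.0629 and 0.109% ± 0.0276.

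**Figure D3:**
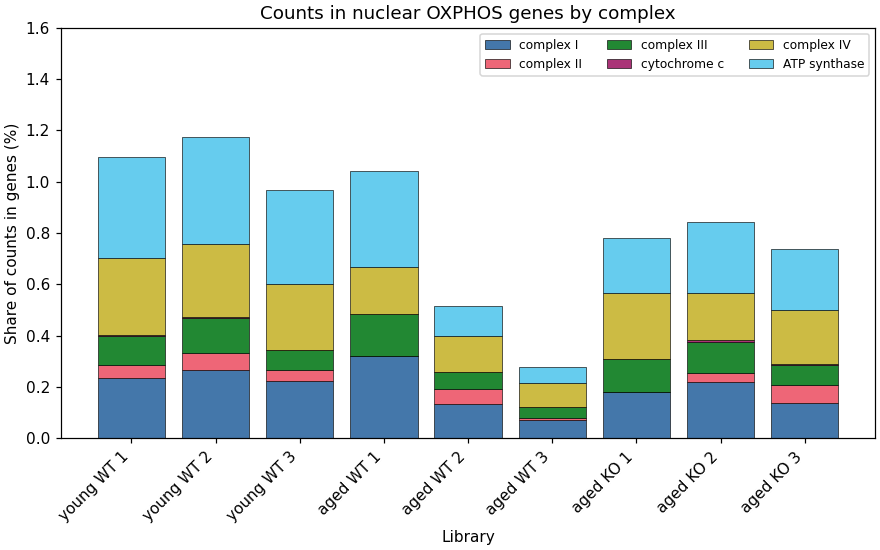
Share of counts in genes that fell on members (vertical axis, percent) in each library, stacked by complex. Aged WT library 1 reaches 1.04%, as high as young libraries, while aged WT libraries 2 and 3 hold 0.516% and 0.280%; the aged KO libraries lie between 0.737% and 0.843%.

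The share was carried by few genes in aged WT. The 10 highest members held 47.6% ± 4.80 of the member counts in young, 72.0% ± 2.17 in aged WT and 52.6% ± 4.61 in aged KO libraries. The highest member was Cox7a2l in 2 young and all 3 aged KO libraries, while in the aged WT libraries it was a different gene each time: Atp5f1, a subunit of the peripheral stalk, in library 1, Uqcrh in library 2 and Cox6b1 in library 3. Atp5f1 had 423, 551 and 588 CPM in young and 1775, 21.0 and 16.2 CPM in aged WT libraries. Its value is named because it led a library, which was seen in the data.

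The promoters of the members were searched for motifs of factors known for nuclear respiratory genes, because so many members were read together in the young cells. RefSeq promoter sequences (GRCm38.p6) matched 68 of the 87 symbols, and the 250 bases before each gene start were searched on both strands. The motif of NRF1, nuclear respiratory factor 1, spelled GCGCA, any base and GCGC, occurred in 12 member promoters (17.6%), in 10.5% of those of the other genes above background in all young libraries and in 3.86% of all 27025 promoters of the same length. The ETS motif CCGGAAG occurred in 16.2%, 16.4% and 7.05% of these sets, and the SP1 motif GGGCGGG in 27.9%, 46.3% and 23.6%. None of the 3 motifs contains another. The following 30-base windows, 5′ to 3′ on the strand of the gene with the NRF1 motif on either strand in capitals, are those of 4 members that the results turn on.
Atp5h: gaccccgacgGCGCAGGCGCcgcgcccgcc
Ndufa11: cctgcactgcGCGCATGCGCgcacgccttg
Sdhd: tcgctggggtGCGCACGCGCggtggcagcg
Cox6a1: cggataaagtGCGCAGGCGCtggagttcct
They lie at chr11:115420041-115420070, chr17:56717692-56717721, chr9:50603909-50603938 and chr5:115349056-115349085, on the minus strand except for Ndufa11. Of these 4 genes, Atp5h and Sdhd were above background in 0 aged WT libraries, and Ndufa11 and Cox6a1 in 2. A match is a description of letters and not of binding.

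In young, members of complex IV led when levels are given as CPM per kb of exons. Cox8a stood at 678 ± 98.9 CPM per kb, Cox6a1 at 649.7 ± 149.7 and Cox7a2l at 607 ± 179.8 (SD, n = 3), and these neighbours did not differ beyond their spread. Cox8a and Cox6a1 code for small subunits of cytochrome c oxidase, and Cox7a2l for a protein that joins complexes III and IV into supercomplexes. Then followed the ATP synthase gene Atp5d, the delta subunit of the central stalk, at 318 ± 35.2, and Ndufb11, an accessory subunit of the membrane arm of complex I, at 258 ± 60.0 CPM per kb. Atp5g2, which codes for the membrane ring, stood at 237 ± 12.5, and Uqcrh, the hinge protein of complex III, at 202 ± 101 CPM per kb. The 4 genes of complex II ran from Sdhc at 83.7 ± 24.7 to Sdha at 22.0 ± 4.46 CPM per kb, with a median of 54.9, against medians of 31.5 for complex I, 64.8 for complex III, 47.7 for complex IV and 68.2 for the ATP synthase. Cycs stood at 7.83 ± 5.39 CPM per kb.

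Differences between groups were tested with edgeR's quasi-likelihood F test over 32582 genes, with TMM factors (which scale libraries so that most genes do not differ) and Benjamini-Hochberg adjustment at 0.05; 82 members passed the filter on low counts. Fold changes are log2 values ± their standard error, and a negative one means less in the group named first. TMM against scaling by total counts in genes shifted the median of all genes by -3.90 in aged WT against young, by 1.88 in aged KO against aged WT and by -2.01 in aged KO against young. Where the sign or the call of a printed fold change differs, both scalings are therefore given or the loss of the call is stated. A fold change of a member at background level in aged WT is a difference from that background.

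In aged WT against young, 64 of the 82 tested members were called lower and none higher. Of all 32582 genes, 18.4% were called lower and 18.6% higher. The median fold change was -5.82 for the members and 1.37 for all genes tested. No member was higher even at an unadjusted p under 0.05 by edgeR, and DESeq2 and limma-voom also called 0 higher, where they called 31.9% and 20.1% of all genes higher. They called 66 and 70 members lower, and 19.8% and 15.3% of all genes. Among the 78 members above background throughout young 61 were called lower, and of the 5355 other protein-coding genes with that property 79.7% were. That property was read from the same young libraries, which favours lower calls in both sets, here and in aged KO against young. Scaled by total counts, 24 members were called lower, all 24 of them among the 64, and 1 was called higher (Cox7b2), where 3.48% and 68.4% of all genes were called lower and higher. With the background subtracted edgeR called no member in either direction (0.0579% and 0.0811% of the genes kept were called lower and higher), with 17 lower and 0 higher at an unadjusted p under 0.05. The median fold change was then -1.86 for the members and -2.01 for all genes kept. Without aged WT library 3, 35 members were called lower.

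**Figure D4:**
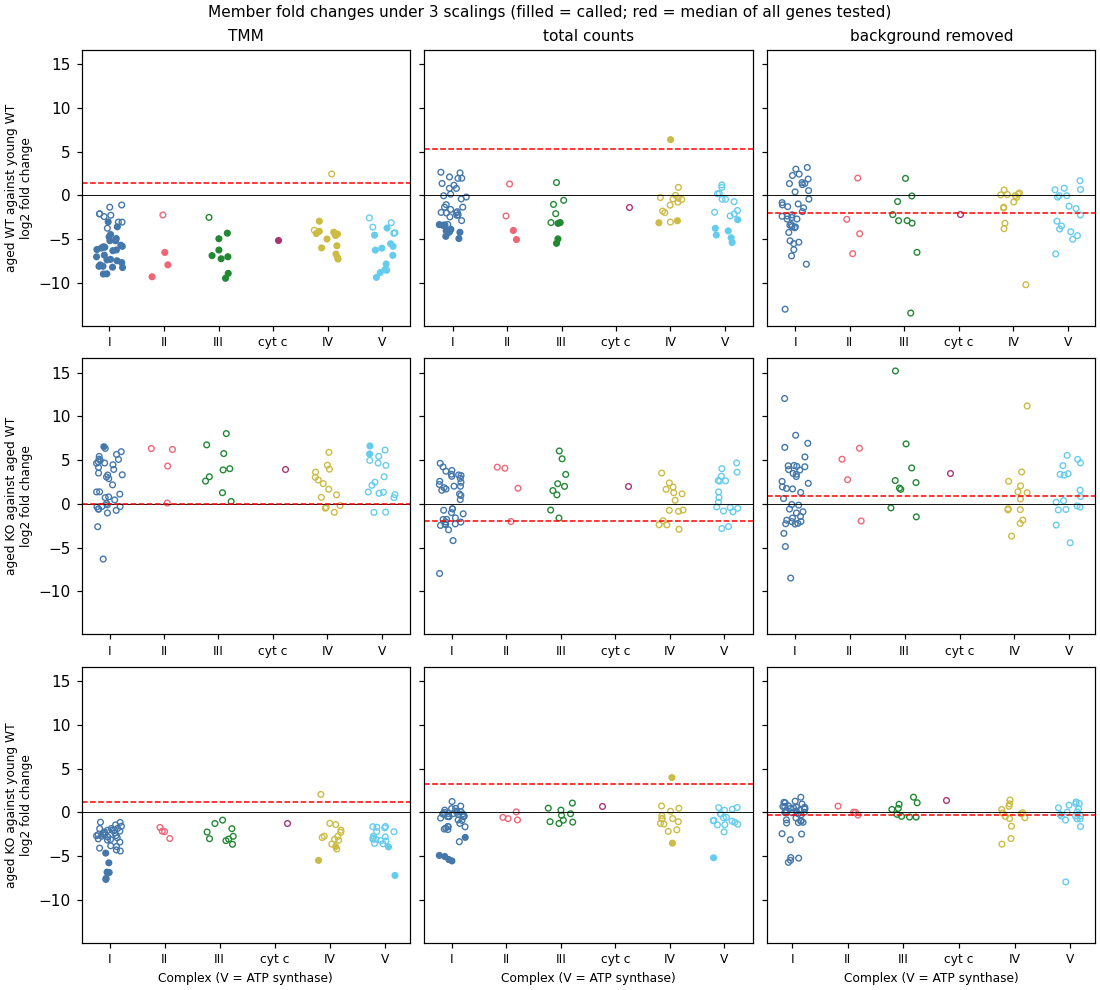
Log2 fold change of each tested member (circles, filled where called at an adjusted p under 0.05), by complex, for the 3 comparisons (rows) under 3 treatments of the counts (columns); the red dashed line is the median of all genes tested. Filled circles are many only in aged WT against young with TMM (64) and with total counts (25), and none is filled in the column with background removed.

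The calls ran through every complex. Called lower were 28 of 37 tested members of complex I, 3 of 4 of complex II, 8 of 9 of complex III, cytochrome c, 12 of 14 of complex IV and 12 of 17 of the ATP synthase. Of all genes, 18.4% were. The share given above for other protein-coding genes above background in all young libraries was larger than for complexes I and II and the ATP synthase. It was smaller than for complexes III and IV. The members counted by complex were not limited to those above background throughout young, so these are shares of unlike sets. On the CPM scale, where aged WT libraries carry the higher background, 38 of 82 members (46.3%) had all 3 aged WT libraries below all 3 young libraries. The same was so for 5.87% of all genes and for 33.9% of the other protein-coding genes above background in all young libraries. In the other direction 3 members (3.66%) had all aged WT libraries above all young ones. So had 65% of all genes, but only 2.99% of those other protein-coding genes, near the share of the members.

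Complex I takes electrons from NADH in a peripheral arm and pumps protons in a membrane arm. Ndufb9, an accessory subunit of the membrane arm, had 94.3, 129 and 159 CPM in young, 4.30, 6.68 and 9.57 CPM in aged WT, and 7.65, 178 and 87.5 CPM in aged KO libraries. The aged WT libraries all lay below the young ones. Aged KO library 1 lay within the aged WT range, library 2 above the young range and library 3 between the aged WT and young ranges. Ndufb9 was called lower in aged WT at -8.25 ± 1.53 (edgeR, adjusted p = 0.00573). Ndufb11 had 173, 277 and 252 CPM in young and 570.5, 491 and 155 CPM in aged WT libraries. Its fold change was -3.03 ± 1.11 with TMM (edgeR, adjusted p = 0.0450) and 0.79 with total counts (adjusted p = 0.491), so its sign followed the scaling. Ndufa2, an accessory subunit of the peripheral arm, had 46.6, 93.0 and 105 CPM in young and 7.82, 207 and 21.8 CPM in aged WT libraries, which overlapped.

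The smallest changes among members above background throughout young were in complex I, and each came from libraries that disagreed. Ndufa12 had 35.9, 81.6 and 5.96 CPM in young, 652, 109 and 7.54 CPM in aged WT, and 4.90, 106 and 37.2 CPM in aged KO libraries. Ndufa1 had 30.4, 32.7 and 1.19 CPM in young and 380.3, 0.318 and 0.870 CPM in aged WT libraries. Ndufa11 had 86.2, 19.6 and 55.5 CPM in young and 556, 62.6 and 8.41 CPM in aged WT libraries. All are accessory subunits of complex I, and for all 3 the highest of the 6 values was aged WT library 1. With TMM the fold changes were -1.10 ± 1.50, -1.36 ± 1.84 and -2.11 ± 1.56 in that order (edgeR, adjusted p = 0.529, 0.528 and 0.257). With total counts they were 2.64, 2.57 and 1.96, and none was called.

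Complex II, succinate dehydrogenase, joins the citric acid cycle to the respiratory chain. Sdhc, a membrane anchor, had 295, 183 and 338 CPM in young, 4.50, 4.77 and 15.4 CPM in aged WT, and 7.65, 251 and 192 CPM in aged KO libraries. Sdhc was called lower in aged WT at -9.30 ± 1.62 (edgeR, adjusted p = 0.00531). Sdhd, the other anchor, had 104, 170.1 and 5.93 CPM in young and 6.06, 6.04 and 5.22 CPM in aged WT libraries, so young library 3 fell inside the aged WT range. Its fold change was -7.94 ± 1.89 (edgeR, adjusted p = 0.0109). Sdha, the flavoprotein, had 85.1, 112 and 76.1 CPM in young and 7.23, 12.4 and 33.6 CPM in aged WT libraries, and was called lower at -6.52 ± 1.69 (edgeR, adjusted p = 0.0142; with total counts -2.36, adjusted p = 0.127).

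Sdhb, the iron-sulfur subunit, was the exception in complex II. It had 51.3, 174 and 3.45 CPM in young, 3.71, 553 and 6.09 CPM in aged WT, and 3.49, 3.28 and 132 CPM in aged KO libraries. A single library in each aged group was high and the others were low. Its fold change in aged WT was -2.24 ± 1.96 and not called (edgeR, adjusted p = 0.331), and 1.30 with total counts.

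Complex III passes electrons from ubiquinol to cytochrome c. Uqcrfs1, the Rieske iron-sulfur protein, had 216, 329 and 50.4 CPM in young, 2.74, 5.09 and 5.51 CPM in aged WT, and 142, 329 and 2.28 CPM in aged KO libraries. Its fold change of -9.47 ± 1.78 (edgeR, adjusted p = 0.00575) was the largest of the 78 members above background throughout young. Uqcr11, a small subunit, had 27.2, 63.5 and 62.9 CPM in young and 1.96, 13.7 and 1.16 CPM in aged WT libraries, and was called lower at -6.88 ± 1.67 (edgeR, adjusted p = 0.0116). Uqcrh went the other way on the CPM scale, with 334, 310.0 and 107 CPM in young, 1104, 613 and 353 CPM in aged WT, and 285, 139.9 and 249.7 CPM in aged KO libraries. Its 3 aged WT libraries lay above its 3 young ones, while the fold change was -2.52 ± 1.07 with TMM (edgeR, adjusted p = 0.0695) and 1.46 with total counts, called by neither.

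Cytochrome c carries electrons from complex III to complex IV and also starts the caspase cascade when it leaves mitochondria. Cycs had 12.8, 47.5 and 19.7 CPM in young, 4.50, 16.5 and 10.7 CPM in aged WT, and 2.82, 83.9 and 48.7 CPM in aged KO libraries. The groups overlapped, and the fold change in aged WT was -5.12 ± 1.50 with TMM (edgeR, adjusted p = 0.0216) and -1.33 with total counts, where it was not called. Stretches of at least 150 bases of Cycs at 98% identity or more lie in 3 other annotated genes, so reads may be split between copies.

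Complex IV hands electrons to oxygen. Cox8a had 466, 443 and 351 CPM in young, 10.6, 306 and 5.51 CPM in aged WT, and 311, 139 and 327 CPM in aged KO libraries. Cox6a1 had 536, 495 and 337 CPM in young, 757, 221 and 6.96 CPM in aged WT, and 288, 188 and 67.1 CPM in aged KO libraries. Cox8a was high in aged WT library 2 alone and Cox6a1 in libraries 1 and 2, and each was above background in 2 of the 3. Cox7a2l had 1078, 592 and 1020.3 CPM in young, 404, 23.2 and 345 CPM in aged WT, and 1201, 796 and 941 CPM in aged KO libraries. With TMM all 3 were called lower in aged WT, at -5.76 ± 1.59, -4.37 ± 1.39 and -6.01 ± 1.21 (edgeR, adjusted p = 0.0175, 0.0283 and 0.00673). With total counts none of them was, at -1.97, -0.47 and -1.80.

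The ATP synthase turns the proton gradient into ATP. Atp5a1, the alpha subunit of its catalytic head, had 324, 407 and 477 CPM in young, 6.45, 11.4 and 11.0 CPM in aged WT, and 44.7, 15.0 and 198 CPM in aged KO libraries. The 3 groups did not overlap, and the fold change in aged WT was -9.37 ± 1.57 (edgeR, adjusted p = 0.00531). Atp5g3, 1 of 3 genes of the membrane ring, had 273, 467 and 266 CPM in young, 4.30, 15.6 and 15.1 CPM in aged WT, and 477, 171 and 243 CPM in aged KO libraries. Atp5g3 was called lower in aged WT at -8.82 ± 1.33 (edgeR, adjusted p = 0.00419). Atp5g2, another gene of that ring, had 384, 386 and 421 CPM in young and 225, 66.5 and 20.3 CPM in aged WT libraries. It was called lower at -5.82 ± 1.25 with TMM (edgeR, adjusted p = 0.00790), and stood at -1.93 and was not called with total counts. Atp5d had 633, 537 and 668 CPM in young and 17.2, 520.2 and 15.1 CPM in aged WT libraries. Aged WT library 2 was near the young level, and the fold change was -5.53 ± 1.50 with TMM (edgeR, adjusted p = 0.0164) and -1.73 with total counts, not called.

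In aged KO against aged WT, 3 of 82 members were called higher and none lower. Of all genes tested, 0.457% were called higher and 0% lower. Only 8629 genes were above background in at least 2 libraries of a group, so most of the 32582 genes tested were not. The share among other protein-coding genes above background in all young libraries is not given for these calls. All 3 called members were above background in no aged WT library and in all 3 aged KO libraries. They were Atp5g3, Ndufa10, an accessory subunit of the membrane arm of complex I, and Atp5h, the d subunit of the peripheral stalk. The Atp5g3 libraries are given above, and its fold change was 6.61 ± 1.21 (edgeR, adjusted p = 0.0338). Ndufa10 had 171, 47.8 and 79.1 CPM in young, 9.38, 6.04 and 13.1 CPM in aged WT, and 156, 374 and 176 CPM in aged KO libraries. The aged KO libraries overlapped those of young and lay above all of aged WT, with a fold change of 6.53 ± 1.31 against aged WT (edgeR, adjusted p = 0.0424). Atp5h had 166, 281 and 156 CPM in young, 6.84, 8.27 and 11.0 CPM in aged WT, and 65.2, 99.5 and 157 CPM in aged KO libraries, with a fold change of 5.70 ± 1.19 against aged WT (edgeR, adjusted p = 0.0483). Against young in the aged WT libraries, Atp5h was called lower at -8.51 ± 1.35 (edgeR, adjusted p = 0.00463) and Ndufa10 at -7.68 ± 1.38 (edgeR, adjusted p = 0.00561).

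These 3 calls were lost under most other treatments of the data, while the fold changes stayed positive under both of the following. With total counts they were 4.67 for Atp5g3, 4.63 for Ndufa10 and 3.62 for Atp5h (edgeR, adjusted p = 0.146, 0.148 and 0.148), and with the background subtracted 5.54, 6.92 and 4.37 (edgeR, adjusted p = 0.163, 0.133 and 0.181). No member was called higher with total counts (0.00614% of all genes were), with the background subtracted (0.151% of the genes kept were), or without any single young library, any single aged WT library or aged KO library 3. Without aged KO library 1 or 2, 7 and 5 members were called higher. DESeq2 called 37 members higher and 1 lower, where it called 6.23% of all genes higher and 0.463% lower. The limma-voom fit called 9 higher and 0 lower, where it called 1.1% of all genes higher and 0.0522% lower. Most of the genes in these shares of all genes were not above background in 2 libraries of any group, unlike most members. At an unadjusted p under 0.05, edgeR had 42 members higher and 1 lower. The median fold change was 2.96 over the tested members and -0.04 over all genes tested, 1.14 and -1.91 with total counts, and 1.66 and 0.94 with the background subtracted.

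The largest fold changes among members above background throughout young were not called. Cyc1, cytochrome c1 of complex III, had 75.1, 106 and 55.8 CPM in young, 2.35, 2.86 and 2.32 CPM in aged WT, and 305, 4.25 and 187 CPM in aged KO libraries. Its fold change against aged WT was 8.03 ± 1.69 (edgeR, adjusted p = 0.05004, just above the threshold). Uqcrfs1 differed by 6.74 ± 1.59 (edgeR, adjusted p = 0.0758). For both, a single aged KO library stood near the aged WT level: library 2 for Cyc1 and library 3 for Uqcrfs1. The smallest differences were those of Sdhb at 0.094 ± 1.87, Ndufb10 at -0.12 ± 1.64 and Cox7b at -0.19 ± 1.43, which were not called and stood at -2.01, -1.60 and -1.92 with total counts. Ndufb10 had 397, 0.318 and 15.7 CPM in aged WT and 4.01, 120.2 and 11.8 CPM in aged KO libraries, and Cox7b had 10.6, 299 and 2.61 CPM and 8.10, 37.0 and 37.2 CPM. For both genes 1 aged WT library stood above all aged KO libraries and the others did not. Without a test of counts, 14 members (17.1%) had all aged KO libraries above all aged WT libraries in CPM, as had 1.91% of all genes and 10.3% of the other protein-coding genes above background in all young libraries. In the other direction 6 members (7.32%) did, as did 48.8% of all genes and 21.3% of those other protein-coding genes.

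In aged KO against young, 10 of 82 members were called lower and none higher, where 5.84% of all genes were called lower and 6.92% higher. They were Ndufs3, Ndufs4, Ndufb6, Ndufb4, Ndufs5 and Ndufa1 of complex I, Cox7a2 and Cox4i2 of complex IV, and Atp5a1 and Atp5s of the ATP synthase list. Beyond the named rule, Ndufs3, Ndufb4, Ndufs5 and Atp5s are listed because they were called. For Ndufs5, Cox4i2 and Atp5s the aged KO and young libraries overlapped in CPM. Cox4i2 had 0.446, 0.266 and 0.342 CPM in aged KO libraries. Atp5s had 1.74, 0.392 and 95.2 CPM in young and 0.743, 1.06 and 0.855 CPM in aged KO libraries. Among the 78 members read above background throughout young 8 were called lower, against 27.4% of the other protein-coding genes with that property. No member was higher at an unadjusted p under 0.05 and 40 were lower, DESeq2 called 42 lower and 0 higher (13.7% and 14.3% of all genes), and limma-voom 16 lower and 0 higher (6.28% and 7.9%).

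Ndufs4, an accessory subunit of the peripheral arm whose loss causes a Leigh-like disease in mice, had 81.9, 100.4 and 67.0 CPM in young, 7.62, 43.6 and 13.3 CPM in aged WT, and 1.56, 2.57 and 4.10 CPM in aged KO libraries. The 3 groups did not overlap in CPM and aged KO was the lowest, with a fold change against young of -6.87 ± 1.47 (edgeR, adjusted p = 0.0299). Ndufs4 was above background in 1 aged WT library, and the background per kb was higher in aged WT than in aged KO libraries. The part of that background in the order of the aged groups was not tested. Ndufb6, a membrane arm subunit, had 3.94, 37.6 and 54.1 CPM in young, 0.782, 34.0 and 2.90 CPM in aged WT, and 0.669, 0.975 and 0.399 CPM in aged KO libraries, with a fold change of -7.54 ± 1.87 (edgeR, adjusted p = 0.0333). Exons of Ndufb6 overlap those of the antisense gene Smim27 over 39.0% of their length, and reads of the pair could not be told apart. Ndufa1 had 0.594, 0.709 and 0.228 CPM in aged KO libraries, below every young library, with a fold change of -7.66 ± 2.43 (edgeR, adjusted p = 0.0497). None of these 3 genes was above background in any aged KO library.

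Of these 10 calls, 7 were kept with total counts, where 3.93% of all genes were called lower, and none was kept without any single aged KO library. Those lost with total counts were Atp5a1, Ndufs5 and Cox4i2. With total counts 1 member (Cox7b2) was called higher, as were 52.7% of all genes. With the background subtracted 0 members were called lower and 0 higher (0% and 0.0464% of the genes kept), and 4 were lower and 0 higher at an unadjusted p under 0.05 by edgeR. On the CPM scale 16 members (19.5%) had all aged KO libraries below all young ones. The same was so for 4.06% of all genes and 23.3% of the other protein-coding genes found above background throughout young. Above all young libraries lay 2 members (2.44%), 53.5% of all genes and 3.27% of those other protein-coding genes. Leaving out other libraries left 3 to 8, namely 3 without aged WT library 2 or 3, 5 without aged WT library 1 or young library 1, 6 without young library 2 and 8 without young library 3. At the other end, Cyc1 and Ndufa10 differed least from young, together with Ndufa9 at -1.12 ± 1.49 (edgeR, adjusted p = 0.550), which stood at 0.45 with total counts. Their fold changes were -0.89 ± 1.25 for Cyc1 and -1.15 ± 1.04 for Ndufa10 (edgeR, adjusted p = 0.574 and 0.384), and 1.06 and 1.25 with total counts. Ndufa9, which sits near the ubiquinone site, had 3.81, 16.2 and 97.998 CPM in young and 3.12, 16.6 and 142 CPM in aged KO libraries, a wide spread in both groups.

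The 3 comparisons share libraries, so their fold changes for a member are not independent. Side by side, Atp5g3 stood at -8.82 in aged WT against young and 6.61 in aged KO against aged WT, Ndufa10 at -7.68 and 6.53, Atp5h at -8.51 and 5.70, and Uqcrfs1 at -9.47 and 6.74. Ndufs4, called lower in aged KO against young, stood at -5.83 and -1.04, Ndufb6 at -4.93 and -2.61, and Sdhb at -2.24 and 0.094. In aged WT against young, Ndufs4 and Ndufb6 were called lower with TMM. With total counts they were not, at -1.95 and -1.35 (edgeR, adjusted p = 0.131 and 0.389). The genes in this paragraph were chosen after their values were seen.

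Complex IV and Ndufa4 exist as widely used and tissue-restricted isoforms. In young libraries the widely used isoforms were read and most others were near 0. Cox6a2, Cox8b and Ndufa4l2, of muscle, muscle and low oxygen, had 0 counts in all 3 young libraries, and Cox7a1, Cox7b2 and Cox8c, of muscle and testis, had at most 0.129 CPM. The testis isoform Cox6b2 was the exception among those, at 11.8, 10.4 and 1.80 CPM in young, where its partner Cox6b1 had 132, 199.9 and 92.6 CPM. Cox4i2, the isoform of lung and low oxygen, had 0.0540, 0.712 and 3.51 CPM, where Cox4i1 had 188, 379 and 149 CPM.

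**Figure D5:**
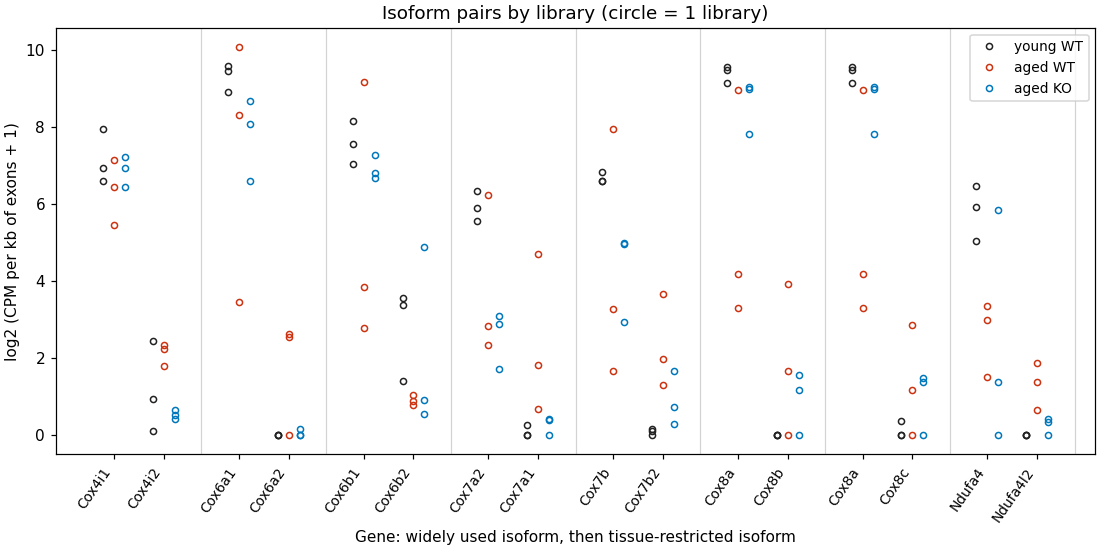
Level of widely used isoforms and of their tissue-restricted partners (pairs along the horizontal axis, Cox8a shown against both of its partners) as log2 of CPM per kb of exons + 1, with 1 circle per library coloured by group. In young the restricted isoforms lie at or near 0 apart from Cox6b2 and Cox4i2, and Cox6a2, Cox8b and Ndufa4l2, at 0 in young, have counts in aged WT libraries.

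In aged WT libraries the restricted isoforms took counts too. Cox6a2 had 3.32, 0 and 3.48 CPM, Cox8b 0.782, 5.09 and 0 CPM, Ndufa4l2 1.76, 0.636 and 2.90 CPM and Cox7b2 0.782, 1.59 and 6.38 CPM in aged WT libraries, none above background. Cox7a1 was above background in a single aged WT library, with 13.3 CPM against 1.37 and 0.318 CPM in the others. The partner Cox7a2 had 43.3, 55.2 and 75.5 CPM in young, 70.4, 3.82 and 5.80 CPM in aged WT, and 7.06, 2.13 and 5.98 CPM in aged KO libraries. Cox6b1 had 9.38, 4.13 and 411 CPM in aged WT and 109, 71.7 and 78.9 CPM in aged KO libraries, and Cox4i1 had 218, 133 and 66.1 CPM and 188, 132 and 232 CPM. Ndufa4, named for complex I but described since as a subunit of complex IV, had 82.3, 122 and 44.4 CPM in young, 2.54, 9.54 and 12.8 CPM in aged WT, and 0, 78.2 and 2.22 CPM in aged KO libraries.

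The subunits coded by mitochondrial DNA were counted beside the nuclear ones. Of the 13 such genes, 12 were above background in at least 2 libraries of each of the 3 groups. They held 2.64% ± 0.560 of counts in genes in young, 3.62% ± 1.13 in aged WT and 4.13% ± 0.791 in aged KO libraries (SD, n = 3), against 1.08%, 0.613% and 0.787% for the nuclear members. The ratio of nuclear to mitochondrial subunit counts was 0.382, 0.385 and 0.485 in young, 0.226, 0.134 and 0.117 in aged WT, and 0.210, 0.231 and 0.146 in aged KO libraries, so that the young libraries lay above all 6 aged ones. With TMM, 9 of 12 tested were called lower in aged WT, as were 18.4% of all genes. With total counts 1 was called higher and 0 lower, beside 68.4% and 3.48% of all genes. Without young library 1 and with TMM, 4 were called lower. mt-Cytb, the cytochrome b of complex III, had 6241, 7579 and 4019 CPM in young and 19359, 11894 and 9226 CPM in aged WT libraries. Its fold change was -2.76 ± 0.77 with TMM (edgeR, adjusted p = 0.0181) and 1.18 ± 0.51 with total counts (edgeR, adjusted p = 0.0468), a call in opposite directions.

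Other genes around the pathway were counted from lists. Called lower in aged WT against young were 30 of 51 tested assembly factors of the complexes, 8 of 15 regulators of nuclear respiratory genes and mitochondrial transcription, 13 of 14 citric acid cycle enzymes and 5 of 6 carriers and porins, beside 18.4% of all genes. With total counts these were 7, 0, 3 and 5, beside 3.48% of all genes, and with the background subtracted 0 in each. The share called lower with TMM among other protein-coding genes above background in all young libraries is given above. It was larger than for the assembly factors and regulators, and smaller than for the citric acid cycle enzymes and carriers. The lists were not limited to genes above background throughout young, so these are shares of unlike sets. Only 38 of 54 listed assembly factors and 12 of 15 regulators were above background in at least 2 young libraries. Without any single aged WT library the assembly factors called were 7 to 11 and the regulators 1 or 2, and without aged WT library 3 the citric acid cycle enzymes were 8. None of these genes was called higher with TMM, and with total counts 7 assembly factors and 2 regulators were, beside 68.4% of all genes. Slc25a3, the mitochondrial phosphate carrier that feeds the ATP synthase, had 884, 893 and 707 CPM in young, 212, 35.6 and 106 CPM in aged WT, and 272, 992 and 1049 CPM in aged KO libraries. Idh3b of the citric acid cycle had 263, 211 and 231 CPM in young and 10.8, 144 and 21.5 CPM in aged WT libraries. Nrf1, the factor whose motif was searched above, was not called and had 34.9, 36.6 and 2.22 CPM in young and 18.6, 18.8 and 40.9 CPM in aged WT libraries.

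In aged KO against aged WT, 2 genes of these lists and the mitochondrial one together were called higher: Slc25a5, an ADP/ATP carrier (7.13 ± 1.22, edgeR, adjusted p = 0.0338), and Cox14, an assembly factor of complex IV (6.03 ± 1.27, edgeR, adjusted p = 0.0495). Both were picked for naming because they were called, and neither call held with total counts, with the background subtracted, or without any single young library, any single aged WT library or aged KO library 3. Of all genes tested, 0.457% were called higher with TMM. In aged KO against young with TMM, 19 of the 98 tested genes of the 5 lists were called lower and 0 higher. Of all genes, 5.84% and 6.92% were. With total counts 12 were lower and 7 higher, beside 3.93% and 52.7% of all genes. The listed share lower with TMM was below that given above for other protein-coding genes above background throughout young. The listed genes were not limited to that property, so these are shares of unlike sets. The count lower was 0 without any single aged KO library, 12 without young library 1, 9 without aged WT library 1 or 2 and 6 without aged WT library 3.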

How the data were processed

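RNA-seq of 1000 sorted cells per library, amplified for 13 cycles and read as 150 bp pairs per the labels' protocols, was deposited by the authors as 1 table of raw counts per gene for 9 libraries. Per the submitters' processing notes the tools were HTSeq 0.10.0, STAR 2.6.1d, Trim Galore 0.6.2 and edgeR 3.24.3, with mm10 as the genome build. Which annotation and strand setting were used is not given in the sources used here. For that reason reads of antisense partners could not be told apart: exons of 30 members overlap those of another gene, and 24 members share at least 150 bases at 98% identity with another annotated gene. The 5 lines that name no gene, among them counts outside genes (6.51% to 87.7% of all counts) and ambiguous counts (0.619% to 5.48%), were left out of totals and tests. Symbols, positions and exon lengths come from GENCODE M21 (52403 of 52550 identifiers matched).

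Counts were tested with edgeR 4.0.16 (quasi-likelihood F test, all 9 libraries, a mean per group, TMM, filterByExpr, Benjamini-Hochberg adjustment over 32582 genes) in R 4.3.3. Alternatives were total counts scaling, DESeq2-type size factors, upper-quartile factors, DESeq2 1.42.0, voom of limma 3.58.1, other filters on low counts, a replicate block, only the 6 libraries compared, and each library left out in turn. In 1 more, the density of reads on 1134 olfactory receptor genes (densest 1% left out), taken as background, was subtracted, keeping 8629 genes. The scripts were tested on simulated data. Members, lists and tests were chosen with earlier results of these data known. Named members were, per complex, the 3 highest young levels per kb (all 4 of complex II), the isoform pairs, in each comparison the 3 largest and 3 smallest fold changes of members above background in every young library, and members called in aged KO against aged WT; of each list, up to 2 examples. A level is CPM, counts per 1000000 counts in genes.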

Additional observations from a re-analysis of the deposited data

Results flagged for a closer look

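Ndufb1-ps carries the name of a complex I subunit and was left out by its suffix, yet had a mean of 40.7 CPM in the young libraries. Counts outside annotated genes, which no comparison uses, made up a mean of 83.6% of all counts in aged WT and 54.5% in aged KO libraries, above the share in young libraries.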

How the results depend on the processing

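The aged WT libraries have few counts in genes and a high background, and a member not above background there was not distinguished from it. Over all tested members, the sign with total counts differed from that with TMM for 17 in aged WT against young, 18 in aged KO against aged WT and 20 in aged KO against young, and with background removed for 22, 16 and 40. Of the values of single members named with a comparison, recomputed under each alternative, 697 kept their side of the threshold and direction, 200 lost and 14 gained the call, and 46 changed sign; where no value shows why, the cause was not tested. Members lower in aged WT against young numbered 64, and 24 with total counts, 39 with the stricter low-count filter, 0 with background removed and 35 to 63 without each library in turn. Members higher there numbered 0, and 1 with total counts and with the 2 groups alone. For aged KO against aged WT the 3 higher became 0 with total counts, DESeq2-type size factors, upper-quartile factors, the 2 groups alone and background removed, 37 with DESeq2 (1 lower), 9 with limma-voom, 7 with no low-count filter, 6 with the stricter filter and 0 to 7 without each library. For aged KO against young the 10 lower became 42 with DESeq2, 16 with limma-voom, 3 with the stricter filter, 0 with background removed and 0 to 8 without each library, and 1 was higher with total counts.

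No pairing by replicate number was seen: same-numbered libraries deviated from their group means with correlations between -0.04 and 0.02. Libraries of different numbers ran from -0.03 to 0.04. Most of the 32582 genes used were not above background in 2 libraries of any group, so these values cannot exclude a pairing. With a replicate block 57 members were lower in aged WT against young, 0 were called in the other comparisons, 16 assembly factors were lower in aged WT, and 0 genes of the 5 pathway lists together were called in aged KO against either group.

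Of the lists, assembly factors lower in aged WT numbered 30, and 7 with total counts, 0 with background removed and 7 to 29 without each library. Mitochondrial subunits numbered 9, 0, 0 and 4 to 8 in that order, regulators 8, 0, 0 and 1 to 9, citric acid cycle enzymes 13, 3, 0 and 8 to 13, and carriers 5, 5, 0 and 5 to 6. The 5 lists together had 2 higher in aged KO against aged WT, 0 with total counts, DESeq2-type size factors or background removed, and 0 to 2 without each library. In aged KO against young they had 19 lower, 12 lower and 7 higher with total counts, 0 with background removed and 0 to 23 lower without each library.

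For the members named, signs changed as follows. In aged WT against young with total counts, Ndufb11 stood at 0.79, Sdhb at 1.30, Uqcrh at 1.46, Ndufa12 at 2.64, Ndufa1 at 2.57 and Ndufa11 at 1.96. With background removed these were 1.34, 1.98, 1.94, 3.19, 3.00 and 2.27, and Ndufa2 was 0.54. With the stricter low-count filter Sdhb stood at 0.029, Ndufa12 at 1.18 and Ndufa11 at 0.11. For aged KO against young, Cyc1 stood at 1.06 with total counts, 1.03 with the stricter filter and 1.74 with background removed, Ndufa10 at 1.25, 0.79 and 1.73, and Ndufa9 at 0.45, 0.55 and 1.09 (-4.39 to 0.90 without each library). For aged KO against aged WT, Sdhb stood at -2.01 with total counts, -0.40 with DESeq2-type size factors and with DESeq2, -0.082 with upper-quartile factors, -0.33 with the stricter filter, -1.96 with background removed and -4.39 to 5.85 without each library. Ndufb10 stood at 2.58 and Cox7b at 1.78 with limma-voom, both at 1.12 with the replicate block, and at -1.95 to 4.56 and -0.90 to 4.04 without each library. Ndufs4 ran from -1.87 to 0.37 and Ndufb6 from -3.15 to 0.70 without each library, both positive without aged WT library 2.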
